A study of Mus musculus with 80 samples.

Results

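Hematopoietic progenitor cells (HPC) of 14-day-old (P14) mice that carried Flt3 ITD/+ and were Ifnar -/- were compared with HPC of Ifnar +/-, Flt3 +/+ mice of the same age. The comparison used 5 libraries of the first genotype, called the double genotype here, and 4 of the second, called the control. They were chosen by their titles and make up 9 of the 80 samples of the series, which profiled neonatal hematopoietic stem and progenitor cells by RNA-seq. All mice were on the B6 background, and the control itself carries only 1 intact Ifnar copy by its label, so both groups share an Ifnar mutation. P14 HPC of the single genotypes, Ifnar +/-, Flt3 ITD/+ (4 libraries) and Ifnar -/-, Flt3 +/+ (4 libraries), were fitted with them and are quoted beside them. The labels do not say which Ifnar subunit was mutated, how the ITD allele was made, from which organ and with which surface markers the cells were sorted, or whether each library came from a separate animal. The p-values below therefore measure only the spread between these libraries, which may be technical.

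The type I interferon receptor is a dimer of Ifnar1 and Ifnar2. On binding interferon it activates Stat proteins, which join Irf9 on a DNA element, the interferon-stimulated response element (ISRE), in front of antiviral and antigen-presentation genes. Flt3 is a receptor tyrosine kinase of early progenitors, and an internal tandem duplication (ITD) lets it signal without ligand, in particular through Stat5, and is common in acute myeloid leukemia.

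ISRE-like motifs were searched because interferon-response genes carried the largest decreases described below. RefSeq promoter sequence (GRCm38.p6) was matched by symbol for 11492 of the 17464 genes tested, and the 250 bases before each start were searched on both strands for GAAANNGAAA, where N is any base. The motif was present in 3.38% of all these promoters. Among genes that were lower in the double genotype it was present in 30 of 106 (28.3%), and among those that were higher in 3 of 125 (2.4%). Among the members of the interferon-response list that were lower, 10 of 22 had it (45.5%), and among all its tested members 20 of 46 (43.5%). The following windows hold it in capitals, on either strand and in overlapping copies where they occur, written 5′ to 3′ on the gene's strand. They belong to an antiviral RNA sensor enzyme (Oas1a, chr5:120907526-120907579, minus strand), a translation inhibitor of viral RNA (Ifit1, chr19:34640764-34640853, plus strand), a ubiquitin-like modifier (Isg15, chr4:156200835-156200924, minus strand) and the invariant chain of MHC class I (B2m, chr2:122147508-122147597, plus strand).
Oas1a: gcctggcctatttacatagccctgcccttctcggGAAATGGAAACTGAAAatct
Ifit1: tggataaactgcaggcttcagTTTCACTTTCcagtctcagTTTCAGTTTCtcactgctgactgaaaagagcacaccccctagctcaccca
Isg15: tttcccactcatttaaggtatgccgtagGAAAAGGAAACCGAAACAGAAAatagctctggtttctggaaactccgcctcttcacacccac
B2m: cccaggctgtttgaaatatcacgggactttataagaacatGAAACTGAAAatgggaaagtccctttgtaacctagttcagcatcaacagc
A match of these letters describes the sequence and does not show that a factor bound it. In a check of 4 genes, the bases just after the start lay within an annotated transcript of the gene for 2, so the start positions are not certain. For the interferon-gamma-activated-site-like motif TTCNNNGAA, to which Stat5 and other Stat dimers can bind, the share was 7.31% of all promoters and 8% of those of the genes that were higher, and 0 of the 3 matched STAT5-list genes that were higher had it in this window.

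Before any comparison, the libraries were checked for a trend with gene length, measured across 17454 genes as the Spearman correlation between exon length and the deviation of log2 CPM (read counts scaled to the library total) from the mean of the 17 P14 HPC libraries. Genes within a library are not independent replicates, so the value is a description with no p. The correlation was -0.297, 0.267, -0.375 and -0.253 in control libraries 1 to 4, and -0.0798, 0.163, -0.0815, -0.0853 and -0.149 in double libraries 1 to 5. Control libraries 1, 3 and 4 had the lowest values of all 17, meaning relatively more reads on short genes, while control library 2 lay above all 5 double libraries. In control library 3 the median deviation was 0.598 on the log2 scale for the 2594 genes shorter than 1000 bases and -0.463 for the 5889 genes longer than 5000 bases. The controls also differed among themselves in progenitor genes. Kit, the stem cell factor receptor, was at 99.6, 1230, 97.1 and 338 CPM in the controls and at 539, 901, 685, 494 and 301 CPM in the double libraries. Control library 2 thus lay above every double library and control libraries 1 and 3 below every one. Control library 4, at 338 CPM, lay within the range of the double libraries. Control library 1 also carried granulocyte-precursor RNA, with Mpo at 6400 CPM against 493 to 625 CPM in the other controls, and Elane, neutrophil elastase, at 2130 CPM against 0 to 6.64 CPM. Since these libraries set the control mean, the main results are given with all 4 controls and with control library 2 alone, a fit in which the lone library is assumed to vary like the other groups; the part of length, composition or RNA quality in the results was not tested. Double libraries 4 and 5 stood apart from the other 3. Stromal markers summed to 647 and 1000 CPM in them and to 65 to 141 CPM in the others, endothelial markers to 326 and 400 CPM and to 159 to 212 CPM. Control library 4 was likewise the highest control. Its stromal markers summed to 511 CPM, against 140 to 241 CPM in the other controls, and its endothelial markers to 337 CPM, against 183 to 253 CPM. Gene counts are also given without double libraries 4 and 5.

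**Figure D1:**
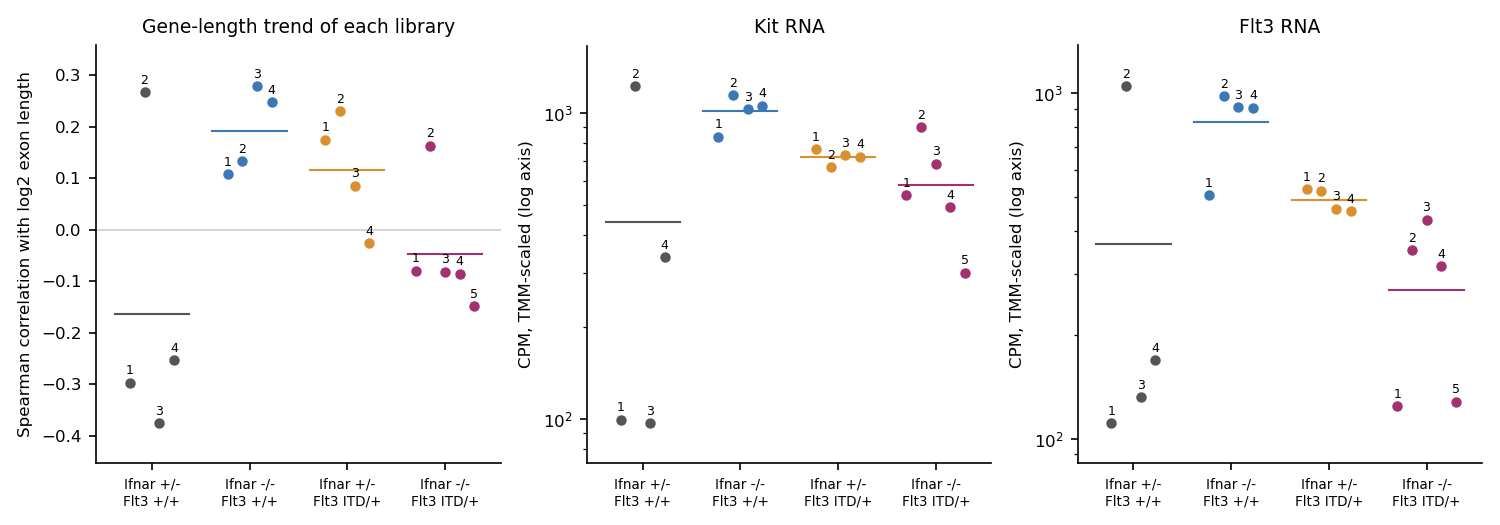
Gene-length correlation (left) and Kit and Flt3 RNA (middle and right, TMM-scaled CPM on a log axis) in the 17 P14 HPC libraries, 1 point per library with its replicate number and a line at the group mean. Control libraries 1, 3 and 4 lie below the other libraries in the left panel, and control library 2 lies above all 5 double libraries in all 3 panels.

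Total counts ran from 61894203 to 92099541 reads per control library and from 59426158 to 69453987 per double library. Y-linked genes summed to at least 138 CPM in 2 of the 4 control and 4 of the 5 double libraries and to at most 0.0456 CPM in the others. Of the markers of other cell types, Cd3e, Cd3d, Trac and Ncr1 (T and NK cells), Ms4a1 (B cells) and Alb and Ttr (hepatocytes) did not pass the filter on low counts. Summed levels in the control and in the double genotype were 118 to 186 and 75 to 384 CPM for 11 macrophage markers, 682 to 1110 and 491 to 666 CPM for 7 B-cell markers, 1.49 to 2.77 and 2.9 to 5.87 CPM for the T and NK markers other than Nkg7, 129 to 345 and 104 to 181 CPM for 7 erythrocyte markers, 183 to 337 and 159 to 400 CPM for 7 endothelial markers, 140 to 511 and 65 to 1000 CPM for 7 stromal markers and 14.2 to 29.8 and 15.4 to 24.4 CPM for 8 hepatocyte markers. The progenitor markers Kit, Cd34 and Flt3 were detected in every library.

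Of 17464 genes tested, 328 differed between the double genotype and the control at an adjusted p under 0.05 in edgeR's quasi-likelihood test (1.88%): 173 were higher in the double genotype (0.991%) and 155 lower (0.888%). The median log2 fold change of all genes was 0.0306. With control library 2 as the only control, 108 genes were called, 36 higher and 72 lower, and without control library 2 the count was 3942 (2314 higher, 1628 lower). Without double libraries 4 and 5, 165 of 17692 genes were called, 85 higher and 80 lower. The fits with all controls and with control library 2 alone share that library and the 5 double libraries. They had 67 called genes in common (25 higher, 42 lower), which is 20.4% of the first set and 62% of the second. Of these 67, 24 belong to the interferon-response or MHC class I lists. In bulk RNA, fewer cells of a type and less RNA per cell cannot be told apart.

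**Figure D2:**
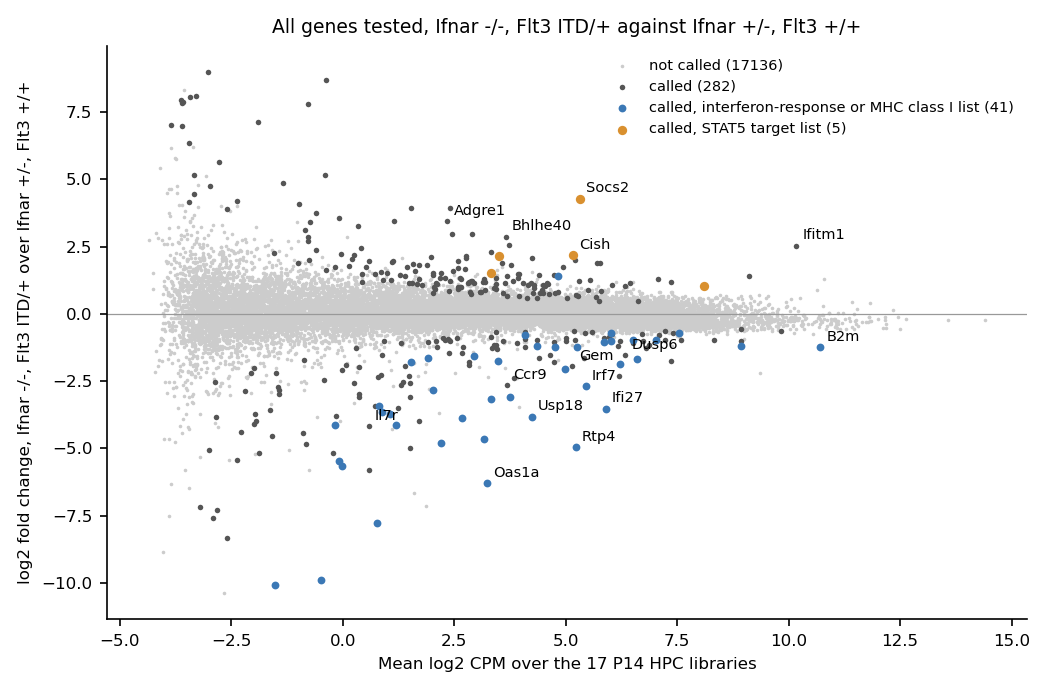
Log2 fold change of each gene (double genotype over control, vertical axis) against its mean log2 CPM over the 17 libraries (horizontal axis). Blue points are the 41 called genes of the interferon-response and MHC class I lists, of which 40 lie below 0, and orange points are the 5 called genes of the STAT5 target list, all above 0.

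The receptor genes come first. Ifnar1 was at 26.9, 49.7, 20.6 and 38 CPM in the controls and 46.4, 53.7, 51, 50.9 and 43.4 CPM in the double libraries. The 2 ranges overlapped, and Ifnar1 was not called (log2 fold change 0.54 ± 0.19 SE, adjusted p = 0.168 by edgeR; -0.03, adjusted p = 0.965 against control library 2 alone). Ifnar2 was at 12.5, 41.4, 16 and 14.6 CPM and at 13.5, 19.5, 33.2, 22.2 and 14 CPM, again overlapping, with control library 2 as the highest (log2 fold change -0.05 ± 0.32 SE, edgeR adjusted p = 0.957; -1.03, adjusted p = 0.285 against control library 2 alone). Counts over a whole gene do not check a deletion within it, so neither value bears on the Ifnar label. Flt3 was at 111, 1050, 132 and 169 CPM in the controls and at 124, 351, 430, 315 and 128 CPM in the double libraries. Its controls spanned both ends of the range, and the difference was not called (log2 fold change -0.44 ± 0.54 SE, edgeR adjusted p = 0.702; -1.97, adjusted p = 0.0678 against control library 2 alone). Read counts of Flt3 do not show the duplication.

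Many interferon-response genes fell in the double genotype. Of 61 tested genes on the list, 31 fell (0.888% of all genes did), 1 rose (0.991%) and 29 were not called, with a median log2 fold change of -1.06 (0.0306 for all genes). In 36 of the 61 all 5 double libraries lay below all 4 controls, against 1.64% of all genes. With control library 2 alone, 23 of 62 fell and 0 rose, with a median of -1.28, where 0.367% of all genes fell. Without double libraries 4 and 5, 23 of 61 fell and 0 rose, and with offsets for each library's length trend 32 fell and 1 rose. The rise was in Slfn2, a Schlafen-family regulator of lymphocyte quiescence (log2 fold change 1.43, edgeR adjusted p = 0.0119). It is named as the exception on this list, after its value was seen. Ifitm1, described below, is also interferon-inducible and rose, but is not on the list.

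Transcription factors and regulators of the receptor pathway were among the genes that fell. Irf7, the factor that amplifies interferon transcription, was at 58.4, 94.3, 65.2 and 108 CPM in the controls and at 11, 12, 12.2, 11.1 and 16.7 CPM in the double libraries. The groups were far apart, at a log2 fold change of -2.69 ± 0.33 SE (edgeR adjusted p = 0.000103), and -2.91 against control library 2 alone (adjusted p = 0.00462). Irf9, the DNA-binding partner of Stat2, fell by 1.67 ± 0.23 SE on the log2 scale (edgeR adjusted p = 0.000282), from 111 to 205 CPM in the controls to 47.5 to 60.2 CPM, and the value was -1.83 against control library 2 alone (adjusted p = 0.00804). Usp18, which restrains signalling at the receptor, fell by 3.82 ± 0.40 SE (edgeR adjusted p = 1.55e-05), with controls at 35.1, 48.3, 61.2 and 94.9 CPM and double libraries at 3.88, 4.27, 5.91, 3.96 and 3.14 CPM, and a log2 fold change of -3.52 against control library 2 alone (adjusted p = 0.00206). Both groups of libraries were again separate for each gene. These 3 were the genes called of 17 on the list of interferon receptor signalling, all lower, where 0.888% of all genes were. All 3 are also on the interferon-response list and are counted there. The median log2 fold change of the 17 genes was -0.046. Stat2, at 8.43 to 34.8 CPM in the controls and 16.9 to 25.8 CPM in the double libraries, did not pass the test (log2 fold change 0.31 ± 0.29 SE, edgeR adjusted p = 0.599; -0.65, adjusted p = 0.29 against control library 2 alone).

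Among effector genes, Rtp4, a chaperone and restriction factor induced by interferon, was at 140, 141, 263 and 245 CPM in the controls and at 6.5, 4.24, 6.14, 6.87 and 7.97 CPM in the double libraries. No library of either group came near the other, and the log2 fold change was -4.96 ± 0.37 SE (edgeR adjusted p = 2.68e-07; -4.48 against control library 2 alone). Ifi27, a mitochondrial and nuclear-envelope protein, was at 177, 162, 352 and 245 CPM against 21.6, 18.4, 17.7, 18.6 and 25.3 CPM. Here too every control lay above every double library (log2 fold change -3.53 ± 0.24 SE, edgeR adjusted p = 1.2e-07; -3.01 against control library 2 alone). Ifit1, whose promoter window is shown above, was at 18.2, 34.9, 27.3 and 47.5 CPM in the controls and at 1.37, 1.31, 1.66, 0.821 and 1.27 CPM in the double libraries, which places it among the genes with no overlap (log2 fold change -4.63 ± 0.48 SE, edgeR adjusted p = 1.51e-05; -4.77, adjusted p = 0.000698 against control library 2 alone).

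Oligoadenylate synthetases make the messenger that activates RNase L. Oas1a, also shown above, was at 62.6, 60.1, 106 and 94.2 CPM in the controls and at 1.12, 1.65, 0.621, 0.19 and 1.63 CPM in the double libraries. The separation was complete (log2 fold change -6.28 ± 0.54 SE, edgeR adjusted p = 1.86e-06; -5.87, adjusted p = 0.00014 against control library 2 alone). Oas1g had 2 reads in all 5 double libraries and 2119 in the 4 controls. Per read sequenced that is a ratio of 1168 (exact 95% interval 323 to 9652, counting error only). The Oas1 genes are near-identical copies, so the split of reads between them is uncertain. The Ifit3 and Ifit3b pair, both called, has the same limit. Mx1, a dynamin-like antiviral GTPase named after its values were seen, had 0 reads in the double libraries and 540 in the controls, at least 198-fold lower against a floor of 3 reads over the group; the list's median stays at -1.06 with Mx1 at that bound. Oasl2, Xaf1, Rsad2 and Isg15 fell by 1.86, 2.03, 1.77 and 3.11 on the log2 scale. Against control library 2 alone, Oasl2 was still called (adjusted p = 0.0335), while Xaf1 (0.145), Rsad2 (0.133) and Isg15 (0.0506) were not. The call of Rsad2 was also lost without double libraries 4 and 5 (adjusted p = 0.17).

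Of 17 tested genes of MHC class I presentation, 9 fell (0.888% of all genes did), 0 rose and 8 were not called, with a median log2 fold change of -0.70. With control library 2 alone 5 fell, where 0.367% of all genes did (72 of 19645), and without double libraries 4 and 5 also 5. H2-K1, a classical class I heavy chain, was at 596, 734, 638 and 640 CPM in the controls and at 307, 341, 295, 228 and 254 CPM in the double libraries. The 2 sets did not overlap (log2 fold change -1.19 ± 0.17 SE, edgeR adjusted p = 0.000622; -1.38, adjusted p = 0.0204 against control library 2 alone). B2m, the chain shared by class I molecules, was at 2070, 2140, 3520 and 2760 CPM against 980, 1080, 982, 1150 and 1370 CPM, likewise without overlap (log2 fold change -1.24 ± 0.19 SE, edgeR adjusted p = 0.00109), but the call was lost against control library 2 alone (-0.95, adjusted p = 0.156). The class Ib genes H2-Q6 and H2-Q7 fell by 3.41 and 3.65, from at most 6.33 CPM in the controls (-3.84 and -3.44 against control library 2 alone, adjusted p = 0.00745 and 0.00206), and share sequence with other H2 genes, so their reads may be split. H2-D1 did not pass the test: its controls ranged from 139 to 1400 CPM, with the highest in control library 2, and its double libraries from 174 to 601 CPM.

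Beside the single genotypes, the interferon-response list had 31 higher and 0 lower genes in Ifnar +/-, Flt3 ITD/+ against the same controls, with a median of 1.28. Of all genes 4.84% were called there, 2.62% higher and 2.23% lower. In Ifnar -/-, Flt3 +/+ it had 0 higher and 31 lower genes and a median of -1.12, where 4.39% of all genes were called, 1.08% higher and 3.31% lower. These comparisons share the control libraries with that of the double genotype. Set directly against Ifnar +/-, Flt3 ITD/+, the double genotype had 57 of the 61 genes lower and 0 higher (median -1.96), where 4.03% of all genes were called, 2.11% higher and 1.92% lower. Set against Ifnar -/-, Flt3 +/+, it had 2 higher and 0 lower (median -0.28), where 0.962% were called, 0.647% higher and 0.315% lower. Irf7 shows this order. It was at 123, 279, 644 and 483 CPM in Ifnar +/-, Flt3 ITD/+, above all 4 controls, and at 13.5, 19.3, 15 and 15 CPM in Ifnar -/-, Flt3 +/+, overlapping the double libraries. The double genotype was lower than Ifnar +/-, Flt3 ITD/+ (log2 fold change -4.92, edgeR adjusted p = 2.28e-07), and its difference from Ifnar -/-, Flt3 +/+ was not called (-0.32, adjusted p = 0.708).

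**Figure D3:**
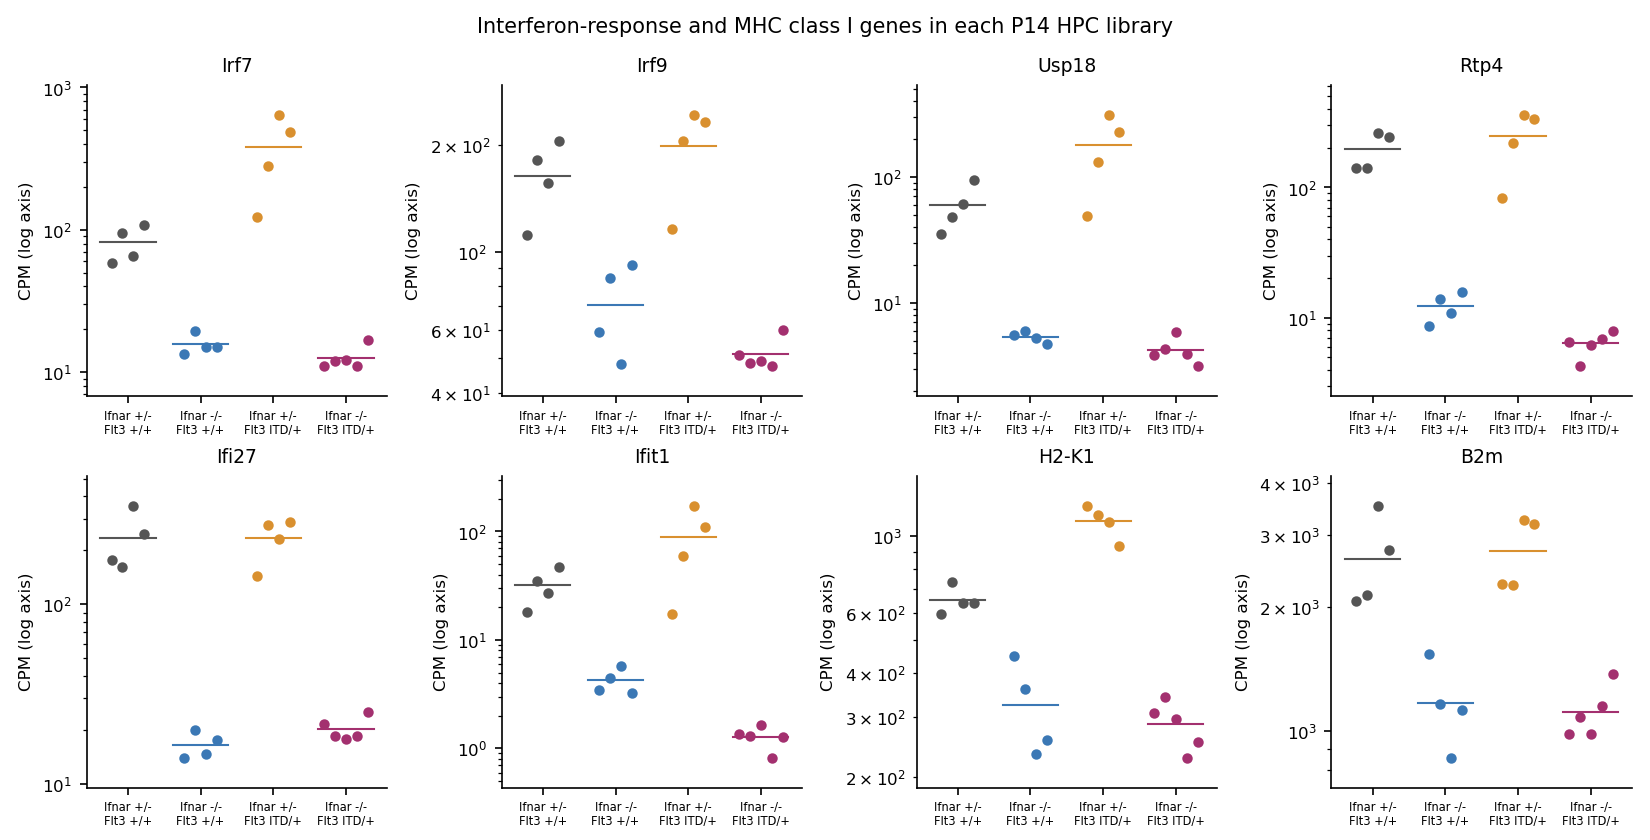
CPM (log axis, TMM-scaled) of 8 interferon-response and MHC class I genes in the 17 P14 HPC libraries, 1 point per library and a line at the group mean. In each panel the 5 double libraries lie below all 4 controls and below all 4 libraries of Ifnar +/-, Flt3 ITD/+.

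Whether the double genotype departed from the sum of the 2 single differences was tested in the same fit. Of 17464 genes 2 were called, or 0.0115%. Bcl2, the founding anti-apoptotic protein of its family, was at 26.3 to 41.2 CPM in Ifnar +/-, Flt3 ITD/+ but at 15.1, 13.5 and 13 CPM in control libraries 2 to 4, slightly higher in control library 1, and at 9.33, 15.1, 11.5, 13.3 and 9.7 CPM in the double libraries, so that double genotype and control overlapped. Its departure was -1.67 on the log2 scale (edgeR adjusted p = 0.0331). Nlrc5, the transactivator of MHC class I genes, was at 6.84, 14.6, 4.85 and 7.68 CPM in the controls, 22.9 to 35.3 CPM in Ifnar +/-, Flt3 ITD/+, 3.23 to 12.4 CPM in Ifnar -/-, Flt3 +/+ and 3.87, 3.58, 2.54, 2.67 and 1.86 CPM in the double libraries, all of them below every control. Its departure was -3.22 (edgeR adjusted p = 0.0413); its level lies under the limit set for naming genes, and it was chosen after its values were seen. An unadjusted p under 0.05 in this edgeR test was reached by 5190 genes (29.7%), and an adjusted p under 0.1 by 2521, so the count of 2 depends on the threshold. With control library 2 alone, no gene was called by edgeR and 915 (4.66%) had an unadjusted p under 0.05, while without control library 2 the share called was 31.3%, and DESeq2 and limma-voom called 14.1% and 27.3% of genes with all controls.

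In the other direction, some targets of Stat5 rose. Of 15 tested genes on the STAT5 target and feedback list, 5 rose (0.991% of all genes did), 0 fell and 10 were not called, with a median log2 fold change of 0.70; with control library 2 alone 2 of 16 rose (0.183% of all genes did), and without double libraries 4 and 5, 3 of 16 rose and 1 fell. Socs2, a feedback inhibitor of cytokine receptors, was at 11.9, 7.75, 4.89 and 8.67 CPM in the controls and at 160, 135, 170, 163 and 182 CPM in the double libraries. Every double library exceeded every control by more than the spread of either group. The log2 fold change was 4.29 ± 0.25 SE (edgeR adjusted p = 2.06e-08), and 4.38 against control library 2 alone (adjusted p = 2.01e-05).

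Cish, another feedback inhibitor of the same family, was at 12.3, 24.3, 15.9 and 13 CPM in the controls and at 72.1, 96.9, 81.2, 60.7 and 59.8 CPM in the double libraries, without overlap (log2 fold change 2.18 ± 0.27 SE, edgeR adjusted p = 9.6e-05). Against control library 2, the highest control, the fold was 1.60 and not called (adjusted p = 0.125). The Pim kinases promote survival downstream of Stat5. Pim1 rose by 1.04 ± 0.21 SE (edgeR adjusted p = 0.0109) and Pim2 by 2.14 ± 0.48 SE (adjusted p = 0.0251) on the log2 scale, and neither was called against control library 2 alone (0.44 and 1.14). In Pim1 that library, at 268 CPM, lay above the lowest double library at 266 CPM. Id1, an inhibitor of differentiation factors, rose by 1.51 ± 0.32 SE (edgeR adjusted p = 0.0184), and by 2.49 against control library 2 alone (adjusted p = 0.0329). The calls of Pim2 and Id1 were lost without double libraries 4 and 5 (adjusted p = 0.176 and 0.146). In Ifnar +/-, Flt3 ITD/+, 7 of the 15 genes rose against the same controls (2.62% of all genes did). Socs2 was at 129, 170, 93.8 and 122 CPM there, which overlapped the double libraries, and its difference between these 2 genotypes was not called (log2 fold change 0.33, edgeR adjusted p = 0.41).

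On the list of feedback genes of the mitogen-activated protein (MAP) kinase pathway, 3 of 11 tested fell (0.888% of all genes did), 1 rose (0.991%) and 7 were not called, with a median log2 fold change of -0.95. Against control library 2 alone, 3 of 12 fell, but not the same 3: Dusp6, Etv5, a transcription factor (-2.38, edgeR adjusted p = 0.0174), and Spry2, an inhibitor of receptor kinase signalling (-1.53, adjusted p = 0.025), the last 2 named after their values were seen. Without double libraries 4 and 5, 2 fell and 0 rose. Dusp6, a phosphatase of the kinase Erk, was at 63.5, 220, 93.1 and 161 CPM in the controls and at 32.5, 50.2, 45.3, 42.1 and 61.5 CPM in the double libraries. The lowest control lay just above the highest double library (log2 fold change -1.54 ± 0.29 SE, edgeR adjusted p = 0.00645; -2.26, adjusted p = 0.000616 against control library 2 alone). Spred2 and Spry1, inhibitors of Ras signalling, fell (edgeR adjusted p = 0.0044 and 0.0496), while Dusp5, a nuclear Erk phosphatase, rose by 0.73 ± 0.18 SE (edgeR adjusted p = 0.0461), a call lost with the size factors of DESeq2 in the same test. Against control library 2 alone none of these 3 was called (-0.92, -1.31 and 1.04, adjusted p = 0.152, 0.158 and 0.0974). The calls of Spry1 and Dusp5 were also lost without double libraries 4 and 5.

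Egr1, an immediate-early transcription factor, was at 3.14, 4.66, 4.23 and 3.92 CPM in the controls and at 0.954, 0.404, 0.621, 1.22 and 0.888 CPM in the double libraries. All double libraries were lower (log2 fold change -2.29 ± 0.33 SE, edgeR adjusted p = 0.000566; -2.52, adjusted p = 0.0204 against control library 2 alone). It was the only call of 12 immediate-early genes (0.888% of all genes fell), and Fos, at 0.0198 to 2.88 CPM in the controls, did not pass the test. Gem, a small GTPase, was at 42.1, 99, 112 and 85.3 CPM against 19.1, 17.9, 17.9, 24.2 and 31.7 CPM, without overlap (log2 fold change -1.93 ± 0.27 SE, edgeR adjusted p = 0.000368; -2.17 against control library 2 alone). In Ifnar +/-, Flt3 ITD/+ it was lower still, at 5.98 to 10.1 CPM, and the double genotype was higher than that genotype by 1.56 on the log2 scale (edgeR adjusted p = 0.00285).

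Part of the lymphoid-priming list fell. Of 18 tested genes, 7 fell (0.888% of all genes did), 0 rose and 11 were not called, with a median log2 fold change of -0.74. With control library 2 alone 3 fell, Il7r, Ccr9 and Satb1, a chromatin organizer (-1.00, edgeR adjusted p = 0.0326; named after its value was seen), and the median was -0.97. Without double libraries 4 and 5, 2 fell. Il7r, the interleukin-7 receptor needed for lymphocyte development, was at 4.47, 10, 3.96 and 7.23 CPM in the controls and at 0.387, 0.622, 0.138, 0.316 and 0.329 CPM in the double libraries. Every control was above every double library (log2 fold change -4.17 ± 0.40 SE, edgeR adjusted p = 7.18e-06; -4.82, adjusted p = 5.91e-05 against control library 2 alone). It was at 1.98 to 5.14 CPM in Ifnar +/-, Flt3 ITD/+ and at 0.727 to 1.26 CPM in Ifnar -/-, Flt3 +/+. The double genotype was below the former (log2 fold change -3.33, edgeR adjusted p = 4.04e-05) and its difference from the latter was not called (-1.44, adjusted p = 0.09).

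Ccr9, a chemokine receptor of thymus-seeding progenitors, was at 19, 38.4, 39.9 and 40.9 CPM in the controls and at 5.83, 4.66, 6.6, 4.58 and 6 CPM in the double libraries. Control library 1 was the lowest of its group and still above all double libraries (log2 fold change -2.64 ± 0.34 SE, edgeR adjusted p = 0.000181; -2.80, adjusted p = 0.00628 against control library 2 alone). Here the single genotypes were the other way round from Il7r: the double genotype was below Ifnar -/-, Flt3 +/+ (19 to 28 CPM, log2 fold change -2.15, edgeR adjusted p = 0.00195), and its difference from Ifnar +/-, Flt3 ITD/+ (2.45 to 12.8 CPM) was not called (-0.69, adjusted p = 0.277). Ccr7, Dntt, Rag2 and Il12a were also among the 7. Ccr7 and Il12a were not called against control library 2 alone (-1.45 and -0.34, edgeR adjusted p = 0.0505 and 0.672) or without double libraries 4 and 5 (adjusted p = 0.072 and 0.0542). Dntt, the template-free polymerase of antigen-receptor joining, fell by 0.95 (edgeR adjusted p = 0.0444) and Rag2, part of the recombinase, by 1.91 (adjusted p = 0.0185), both named after their values were seen and neither called against control library 2 alone. Trbc2, a T-cell receptor constant segment, fell by 2.39, from 25.6 to 75.6 CPM in the controls to 4.94 to 14 CPM, and was not called against control library 2 alone (-1.81, adjusted p = 0.11). The 7 B-cell markers summed to 682 to 1110 CPM in the controls and to 491 to 666 CPM in the double libraries, each of which lay below every control. Of the T and NK markers, Nkg7, which is also on the myeloid granule list, carried nearly all reads (587, 148, 366 and 199 CPM in the controls, 187, 253, 210, 148 and 172 CPM in the double libraries), and the others summed to at most 5.87 CPM. The part of these cell types in the differences was not tested.

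**Figure D4:**
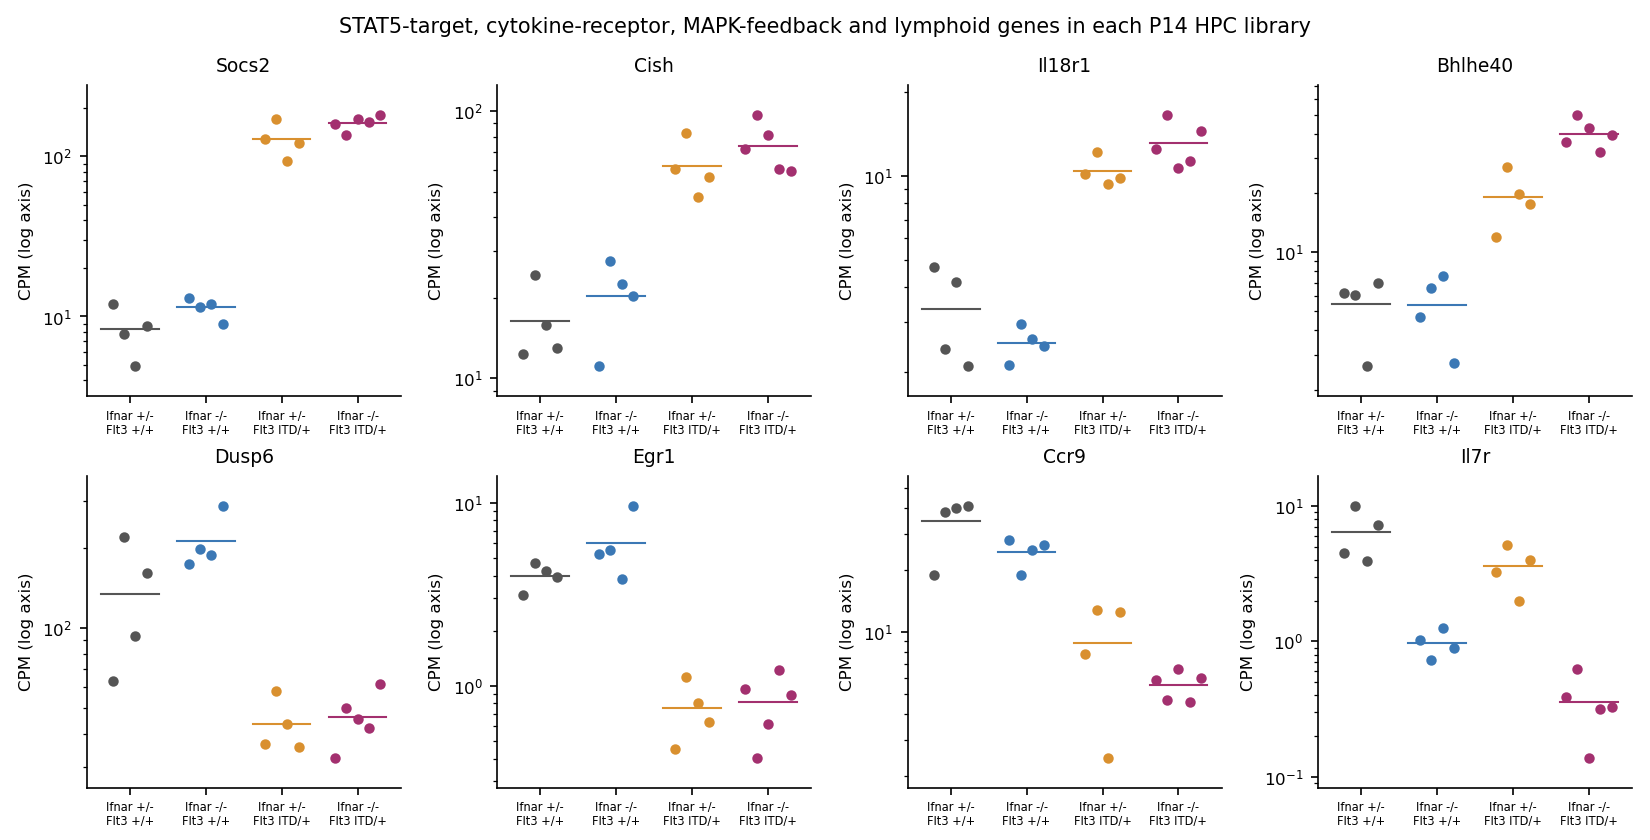
CPM (log axis, TMM-scaled) of 8 genes of Stat5, cytokine-receptor, MAP kinase and lymphoid function in the 17 P14 HPC libraries, 1 point per library and a line at the group mean. Socs2, Cish, Il18r1 and Bhlhe40 are higher and Dusp6, Egr1, Ccr9 and Il7r lower in all 5 double libraries than in all 4 controls.

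Some cytokine receptors rose. On their list 3 of 20 tested genes rose (0.991% of all genes did) and 1, Il7r, fell (0.888%). Against control library 2 alone Il18r1 rose and Il7r fell, and without double libraries 4 and 5 the counts were again 3 and 1. Il18r1, a subunit of the interleukin-18 receptor, was at 4.72, 2.41, 4.19 and 2.09 CPM in the controls and at 12.5, 16.6, 10.7 and 11.3 CPM in double libraries 1 to 4, with library 5 between them. All double libraries were above all controls (log2 fold change 1.97 ± 0.24 SE, edgeR adjusted p = 6.96e-05; 2.43, adjusted p = 0.0016 against control library 2 alone). Csf2rb, the beta chain shared by the receptors for interleukin-3, interleukin-5 and GM-CSF, rose by 1.19 ± 0.22 SE (edgeR adjusted p = 0.00624), and Il10ra, of the interleukin-10 receptor, by 1.10 ± 0.22 SE (adjusted p = 0.00984). Both were lower in the other controls than in control library 2, against which neither was called (0.66 and 0.54).

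Adgre1 encodes the macrophage surface protein F4/80. It was at 1.27, 1.3, 1.11 and 1.41 CPM in the controls and at 14.7, 20, 9.81, 9.67 and 15.1 CPM in the double libraries. The controls were tightly grouped and far below (log2 fold change 3.44 ± 0.27 SE, edgeR adjusted p = 4.8e-07; 3.40, adjusted p = 0.00462 against control library 2 alone). It was at 13.4 to 20.1 CPM in Ifnar +/-, Flt3 ITD/+ and at 1.39 to 2.84 CPM in Ifnar -/-, Flt3 +/+. Of the 10 macrophage markers tested it was the one that rose (0.991% of all genes did). C1qb (complement) and Timd4 (a receptor for dying cells) fell by 2.54 and 3.99 (0.888% of all genes fell), and the remaining 7 were not called. Neither fall was called against control library 2 alone.

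The genes with the largest increases included Ifitm1, an interferon-inducible membrane protein that restricts viral entry. Ifitm1 was at 827, 310, 619 and 411 CPM in the controls and at 3180, 2730, 2540, 3370 and 3960 CPM in the double libraries. Every double library was higher than every control (log2 fold change 2.54 ± 0.24 SE, edgeR adjusted p = 7.18e-06; 3.34, adjusted p = 5.91e-05 against control library 2 alone). Its level in Ifnar +/-, Flt3 ITD/+, 1840 to 2350 CPM, was also above the controls, and in Ifnar -/-, Flt3 +/+ it was 316 to 481 CPM.

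Bhlhe40, a transcriptional repressor, was at 6.16, 6.04, 2.63 and 7 CPM in the controls and at 36.1, 49.9, 42.6, 32.1 and 39.5 CPM in the double libraries, with no overlap (log2 fold change 2.87 ± 0.33 SE, edgeR adjusted p = 3.69e-05; 2.72, adjusted p = 0.025 against control library 2 alone). Of the 15 genes of this kind named by size of increase, Clec10a, a lectin of dendritic cells and macrophages (2.09), Epb41l4b (1.76), Lrp12 (2.55), Myl10 (1.99) and Rgs7bp (1.83), like Socs2, Ifitm1, Bhlhe40 and Id1, were called in both fits. Cish, Pim2, Kcnk5, a potassium channel (1.91), Lrp1, a lipoprotein receptor (1.48), S1pr3, a sphingosine-1-phosphate receptor (2.31), and Serpina3f, a serine protease inhibitor (1.89), had the same direction but were not called against control library 2 alone. Non-overlap was part of the rule that chose these genes.

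Several calls in myeloid and cell-cycle genes were lost with control library 2 alone. Fcgr3, an Fc receptor of myeloid cells, was at 80.3, 2.73, 5.28 and 4.63 CPM in the controls and at 2.43, 1.4, 0.538, 1.3 and 1.69 CPM in the double libraries. Control library 1, the one rich in Mpo and Elane, stood far above the rest, and the log2 fold change of -3.98 (edgeR adjusted p = 0.0254) became -0.91 (adjusted p = 0.713) against control library 2 alone. The calls of Ly86 (-3.09) and S100a8 (-4.56), a granulocyte calcium-binding protein, were lost in the same way, at -1.31 and -0.81. Cd33, a sialic acid-binding receptor, fell by 1.24 ± 0.16 SE (edgeR adjusted p = 0.000207) and by 1.38 against control library 2 alone (adjusted p = 0.0099). Ltf, the granule protein lactoferrin, was at 2.65, 2.94, 4.71 and 6.06 CPM against 16.9, 12.1, 16.7, 20.7 and 20 CPM, so that every double library was higher (log2 fold change 2.08 ± 0.32 SE, edgeR adjusted p = 0.00121; 2.55, adjusted p = 0.0561 against control library 2 alone). The 9 neutrophil markers summed to 7.71 to 31.6 CPM in the controls and 15.7 to 23.7 CPM in the double libraries, where Ltf made up most of the sum. Of the 7 tested, 1 rose (0.991% of all genes did) and 1 fell (0.888%), with a median log2 fold change of -2.08 against all 4 controls.

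Ccnd1, cyclin D1, was at 14.3, 15.5, 19.1 and 11.9 CPM in the controls and at 3.19, 3.43, 1.75, 6.65 and 6.86 CPM in the double libraries, all of them lower (log2 fold change -1.80 ± 0.36 SE, edgeR adjusted p = 0.0112; -1.83, adjusted p = 0.187 against control library 2 alone). Cdkn1a, the cell-cycle inhibitor p21, rose by 1.10 ± 0.25 SE (edgeR adjusted p = 0.0304), with double library 4, at 8.72 CPM, just below control library 1 at 8.8 CPM. Mycn, a Myc-family factor, rose by 0.90 (edgeR adjusted p = 0.0345). Of 26 tested stem cell genes 1 rose (0.991% of all genes did) and 1 fell (0.888%), with a median log2 fold change of 0.264. Fgd5 rose by 0.99 (edgeR adjusted p = 0.0146). Ly6a, the stem cell antigen Sca-1, which interferon also induces, fell by 1.28 (edgeR adjusted p = 0.0202) from 130 to 260 CPM to 62.8 to 86.2 CPM. The calls of Mycn, Fgd5 and Ly6a were lost without double libraries 4 and 5 (edgeR adjusted p = 0.165, 0.09 and 0.0773). Thy1, a surface protein of T cells and early progenitors, rose by 1.73, from at most 0.93 CPM in the controls. None of these 6 genes was called against control library 2 alone.

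Of 21 tested genes of oxidative phosphorylation 2 fell (0.888% of all genes did) and 0 rose, with a median log2 fold change of -0.23. For Cycs, cytochrome c, the controls were at 396, 112, 303 and 187 CPM and the double libraries at 139, 115, 126, 129 and 123 CPM. Control library 2 lay below all double libraries, and the log2 fold change of -0.98 (edgeR adjusted p = 0.0421) turned to 0.16 (adjusted p = 0.747) against it alone. Ndufa4, a subunit of the respiratory chain, went from -1.01 to -0.06 in the same way. Of the 39 lists, 20 had no gene called by edgeR, among them MHC class II, NF-kB, erythroid and megakaryocyte genes, myeloid granule genes, glycolysis, cholesterol synthesis, and the S and G2/M phases of the cell cycle. Of their 244 tested members, 53 had an unadjusted p under 0.05 by edgeR, and DESeq2 called 12 and limma-voom 17. Over all 17464 genes these counts were 2935, 745 and 1396. Of the 53, 12 were among the 15 myeloid granule genes, whose median log2 fold change was -1.15 with all controls and 0.19 with control library 2 alone.

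**Figure D5:**
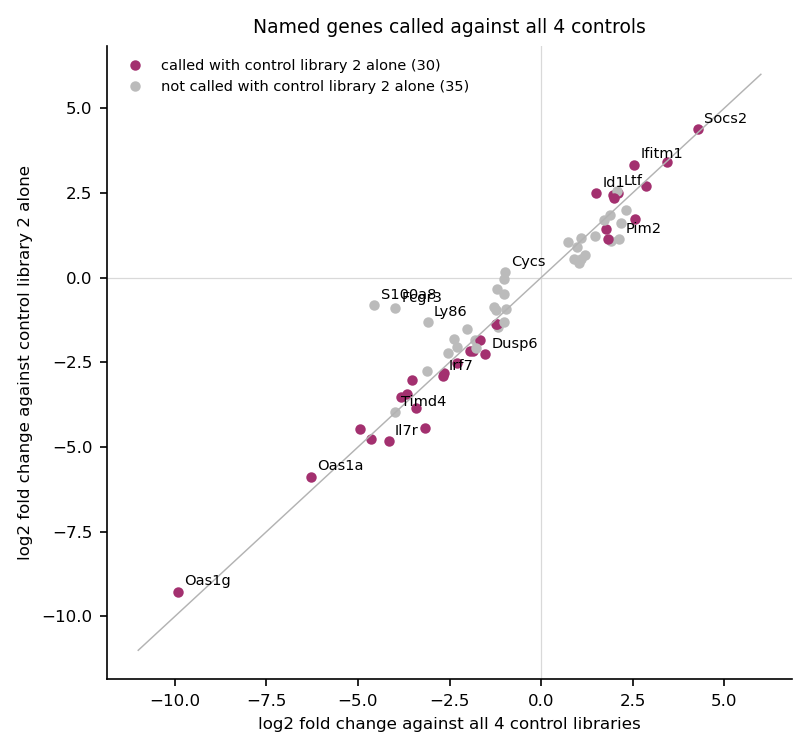
Log2 fold change of the 65 named genes called against all 4 controls (horizontal axis) and against control library 2 alone (vertical axis), with the line of equality. Of the 65 genes 30 were called in both fits, and Cycs is the one gene with the opposite sign.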

How the data were processed

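RNA was extracted with a Qiagen micro plus kit and a Clontech kit spelled SMRTr was used, per the labels' protocols. Reads were aligned with STAR (given as 3.0.4) and counted with featureCounts 1.4.5 of Subread, per the submitters' processing notes; the sources used here give no genome build, annotation or strand setting. The authors deposited unnormalized whole-number counts for each gene, so overlapping or near-identical genes can share reads.

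Of 40481 genes, 17464 passed edgeR's filterByExpr. Counts of the 17 P14 HPC libraries were scaled by TMM and fitted together by genotype with edgeR 4.0.16 (R 4.3.3) quasi-likelihood F-tests, two-sided, with Benjamini-Hochberg adjustment over all genes and calls at an adjusted p under 0.05. Fold changes are log2; SE is the fold change divided by the square root of F. CPM are TMM-scaled, with a prior count of 2 for log2 values. Alternatives used DESeq2 1.42.0, limma 3.58.1, other filters, length and Y-linked covariates, a replicate block and leaving libraries out. The code was tested on simulated counts.

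The members and the 39 gene lists were chosen with earlier results of these data known. Named were Ifnar1, Ifnar2 and Flt3; the 15 genes per direction with the largest change among called, non-overlapping genes whose mean log2 CPM reached 3; up to 4 called members of each list by adjusted p; and up to 10 genes called for departure from additivity at that level. Predicted-gene symbols were left out, and some genes are not reported here. The fits with control library 2 alone and without double libraries 4 and 5 were added after seeing the data. Total counts per library (the smallest control has 61894203 reads) limit precision little beside the spread between libraries. No 2 libraries of a group agreed within sampling noise.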

Additional observations from a re-analysis of the deposited data

Results flagged for a closer look

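Each value below is a library standing apart from its group, with a gap to its nearest neighbour large for the group's range, found in 12 of 144 groups checked; chance alone gives about 1 in 20. Of the 12, 8 were in the control and 4 in the double genotype.

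Control library 1 was the highest of the controls for Fcgr3 (80.3 CPM), Ly86 (10.8 CPM), S100a8 (20.5 CPM) and Cdkn1a (8.8 CPM), and the lowest for Ccr9 (19 CPM). Control library 2 was the highest for Flt3 (1050 CPM), Ifnar2 (41.4 CPM) and Mycn (41.1 CPM). Double library 2 was the lowest of its group for Fgd5 (7.01 CPM) and the highest for the gene-length correlation (0.163). Double library 5 was the highest for Irf7 (16.7 CPM) and Irf9 (60.2 CPM), both still below every control.

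The difference between Ifnar -/- and Ifnar +/- was not the same in Flt3 ITD/+ and Flt3 +/+ cells for 2 genes, by the interaction term in edgeR: -1.675 on the log2 scale for Bcl2 (adjusted p = 0.0331) and -3.219 for Nlrc5 (adjusted p = 0.0413).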

How the results depend on the processing

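The count of 328 genes between the double genotype and the control was 745 with DESeq2, 1396 with limma-voom (63.8% higher against 52.7%), 157 with only the 2 groups fitted, 108 with control library 2 alone (33.3% higher) and 165 without double libraries 4 and 5, which stood apart in stromal and endothelial marker sums and on the first principal component (-32.5 and -63.4, against 2.46 to 16.7 in double libraries 1 to 3). It ranged from 208 to 3942 when each control or double library was left out, the highest without control library 2 and the lowest without double library 4. It stayed within 1.5 times under the other settings, between 249 and 394. The cause was not tested.

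The 0.0115% of genes (2 of 17464) departing from additivity became 14.1% with DESeq2, 27.3% with limma-voom, 0.0416% with no filter and 0.0298% at 1 CPM in 4 libraries. The share became 0% with the length correlation or the Y-linked level as a covariate, with control library 2 alone, and without double libraries 4 and 5, and ranged from 0% to 31.3% when each library was left out, the highest without control library 2. Genes called in at least 1 of the 4 single-genotype contrasts went from 1938 to 5460 with DESeq2, 7592 with limma-voom and 815 with the length correlation as a covariate. The number was 1189 with the Y-linked level as a covariate and 984 without double libraries 4 and 5. It ranged from 967 to 8127 when each control or double library was left out. In all of these ranges the libraries left out were controls or double libraries, never those of the single genotypes.

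Of 69 named genes, Cycs reversed (0.16) and 34 lost the call with control library 2 alone, while 19 lost it without double libraries 4 and 5, 19 with only the 2 groups fitted and 0 with length offsets. Not every same-numbered pair correlated over 0.1 (8 of 24 did, with 5 of the 6 pairs numbered 1 at 0.111 to 0.226), so the numbers were not taken to pair the libraries; 9 of 17 libraries correlated best with their own number. With the replicate block, 249 genes were called between double genotype and control, 0 departed from additivity and 11 of the 69 lost the call. Replicate 5 exists only in the double genotype, so the block absorbs that library. The control mean minus the double mean of the length correlation, -0.118, kept its sign in every setting run. In size this value is smaller than the SD within a group (0.223). The difference ranged from -0.262 without control library 2 to -0.0478 without control library 3.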

Other observations

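Set against Ifnar +/-, Flt3 ITD/+, 9 of 26 tested stem cell genes rose in the double genotype (2.11% of all genes did), 1 fell and 16 were not called. The control libraries are in neither group compared here, but they enter the common filter, scaling and estimate of spread behind the adjusted p. Without double libraries 4 and 5, 2 rose (0.294% of all genes did) and 1 fell. The list was not raised in the double genotype against the other 2 groups. Against the controls 1 of the 26 genes rose and 1 fell. Against Ifnar -/-, Flt3 +/+ 0 rose and 0 fell, with a median log2 fold change of -0.193. Ifnar +/-, Flt3 ITD/+ itself had 5 of the 26 lower than the controls (2.23% of all genes were) and 0 higher. Procr, the endothelial protein C receptor and a stem cell surface marker, was at 65.8, 53.2, 49.4, 55.4 and 75.7 CPM in the double libraries and at 16.7, 25, 21.8 and 22.6 CPM in Ifnar +/-, Flt3 ITD/+. No library of one group reached the other (log2 fold change 1.48 ± 0.20 SE, edgeR adjusted p = 0.000246). Hlf, a transcription factor of stem cells, rose by 1.03 ± 0.18 SE (edgeR adjusted p = 0.00314), Fgd5 by 1.18 ± 0.21 SE (adjusted p = 0.00278) and Esam, a junction protein, by 1.71 ± 0.33 SE (adjusted p = 0.00512). Ly6a, at 62.8 to 86.2 CPM in the double libraries and 86.7 to 291 CPM in Ifnar +/-, Flt3 ITD/+, was the gene that fell (edgeR adjusted p = 0.00679). The part of the length trend, which was lower in the double libraries than in Ifnar +/-, Flt3 ITD/+ except in double library 2 (0.163 against -0.0268 to 0.23), was not tested here. Without double libraries 4 and 5, Procr (adjusted p = 0.00296), Fgd5 (0.0324) and Ly6a (0.0467) were called, while Hlf (0.0554) and Esam (0.0593) were not. Markers of other cells moved in the same comparison: the median log2 fold change was 1.97 for the endothelial list (1 of 7 called higher), 1.52 for the stromal list (0 of 7 called) and 1.08 for the erythrocyte list (1 of 7 called higher). Esam, which endothelial cells also express, was at 62.3, 70.9, 66.1, 134 and 186 CPM in the double libraries, highest in libraries 4 and 5, and at 21.2, 48.3, 34.8 and 22.5 CPM in Ifnar +/-, Flt3 ITD/+. The part of these cells in the differences was not tested. These genes were named after their values were seen.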
